A study of Rattus norvegicus with 16 samples.

Results

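The genes of the protein synthesis machinery were followed in PCCl3 cells, a continuous line of rat thyroid follicular cells, after silencing of Pax8, a paired-box transcription factor that thyroid cells need for their differentiated functions. The set was chosen by name. It holds the array features whose RefSeq accession belongs to a rat gene with a symbol that starts with Eif or Eef and a digit, and to the cytosolic aminoacyl-tRNA synthetases with symbols that end in ars or ars1. Eif2ak2 was left out of the set by that rule. 44 genes of the 8899 named genes on the array were found in this way, of which 34 encode initiation or elongation factors, their inhibitors or their kinases and 10 encode synthetases. They are read by 65 array features, and 29 genes have a single feature whereas 15 have several, with at most 5. In the reference, 91 protein-coding genes fit the symbol rule, and 47 of them had no matched feature, among them Eif5, Eif4g1, Eef1g, Aars1 and Gars1.

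In the siPax8 cells an siRNA against Pax8 had been transfected transiently with Lipofectamine 2000, at 10 ng of siRNA per ml, and RNA was isolated 48 hours later. The controls were wild type (wt) PCCl3 cells in one comparison and cells given a scramble siRNA at the same dose in the other. The wt cells are described as lipofectamine-treated in one place and as not transfected in another, so what they received is not settled. Whether both comparisons used the same siPax8 RNA is not stated, and they were tested as separate samples. RNA was amplified before labelling. All cells grew with calf serum, TSH, insulin, somatostatin, transferrin, hydrocortisone and glycyl-L-histidyl-L-lysine acetate. Each comparison had 4 biological replicates, each hybridised on 2 arrays with the dyes exchanged, giving 8 arrays per comparison and 16 in all. All cells come from a single line and a transient transfection does not reach every cell, so each ratio averages over cells with and without the siRNA. Fewer cells that make an RNA and less of it in each cell cannot be told apart here.

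Translation of most mRNAs starts when the cap-binding factor eIF4E, with the helicase eIF4A and its partners, recruits the small ribosomal subunit, which carries eIF1, eIF1A, eIF3 and the initiator tRNA delivered by eIF2. After each round eIF2 has to be recharged by the exchange factor eIF2B, and kinases that phosphorylate eIF2 block this step, which slows general synthesis and favours mRNAs such as that of Atf4. Elongation is driven by eEF1A, which brings aminoacyl-tRNAs made by the synthetases, and by eEF2, which moves the ribosome along and is inhibited by the kinase Eef2k. Thyroid follicular cells make very large amounts of thyroglobulin. The arrays measured RNA only, so none of the values below is a rate of translation or a level of protein.

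The promoters of these genes carry letters that are widely used to find control sites. The 250 bases before the annotated start, taken from RefSeq with the assembly GRCr8, were found for 38 of the 44 genes, and both strands were searched. The letters CCGGAAG, the core bound by ETS factors, stood in 16 of the 38 windows (42.1%), against 7.74% of the 27457 rat promoters of the same length. The letters TGATGCAA, those of the amino acid response element read by Atf4, stood in 3 of 38 (7.89%) against 0.656% of all promoters, and these 3 genes were Nars1, Tars1 and Eif2s2. The E-box CACGTG stood in 6 of 38 (15.8%) against 5.79%. GTCACGC, a core of paired-box sites, stood in 1 window, that of Eif3d (2.63% against 1.85%). The interferon-stimulated element, searched as GAAA repeated after 2 bases of any kind, also stood in 1 window, that of Eif6 (2.63% against 3.29%). The median share of G and C was 58.4% in the windows of the 38 genes, 56.4% in those of the 7236 named genes with a promoter and 52% in all promoters. Among the named genes the ETS letters stood in 10.9%, the amino acid response element in 0.705%, the E-box in 6.95%, the paired-box core in 2.58% and the interferon-stimulated element in 3.51% of windows. A match is a description of the letters and says nothing of binding.

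The windows of the 3 genes with the amino acid response element are shown first, since 2 of the genes are synthetases and Atf4 targets are described later. Capitals mark the letters searched, so that the capitals in Nars1 are CCGGAAG and TGATGCAA and those in Tars1 are TTGCATCA, the same element on the other strand. The Nars1 window is chr18:60275783-60276032 on the minus strand, that of Tars1 is chr2:62114803-62115052 on the minus strand, and that of Eif2s2 is chr3:163855571-163855820 on the minus strand. The element began 14 bases before the start in Nars1, 27 bases before it in Tars1 and 36 bases before it in Eif2s2.
Nars1: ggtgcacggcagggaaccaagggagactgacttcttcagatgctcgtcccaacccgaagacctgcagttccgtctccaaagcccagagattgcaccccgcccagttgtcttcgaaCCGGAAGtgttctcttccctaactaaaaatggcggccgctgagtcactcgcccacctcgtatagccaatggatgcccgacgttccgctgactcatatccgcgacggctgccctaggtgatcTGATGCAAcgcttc
Tars1: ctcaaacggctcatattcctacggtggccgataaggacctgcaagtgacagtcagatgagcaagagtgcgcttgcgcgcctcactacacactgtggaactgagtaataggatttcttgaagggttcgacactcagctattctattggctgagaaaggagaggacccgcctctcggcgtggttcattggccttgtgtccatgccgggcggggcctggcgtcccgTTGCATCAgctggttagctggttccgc
Eif2s2: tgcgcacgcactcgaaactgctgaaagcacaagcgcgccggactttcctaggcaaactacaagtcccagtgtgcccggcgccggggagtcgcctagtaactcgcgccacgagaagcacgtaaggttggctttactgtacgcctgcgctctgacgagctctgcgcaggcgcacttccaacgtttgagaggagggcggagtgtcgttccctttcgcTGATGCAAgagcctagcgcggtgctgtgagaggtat

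The windows of the 4 genes that passed the test in either comparison follow, to show which of the searched letters they hold. That of Eif2ak1 (chr12:15858165-15858414, minus strand) holds the ETS letters as CTTCCGG, from 70 bases before the start. That of Eef2k (chr1:184824170-184824419, plus strand) holds an E-box 77 bases before the start. Those of Eif3a (chr1:269919026-269919275, minus strand) and Qars1 (chr8:118085993-118086242, plus strand) hold none of the letters searched and are in lower case throughout.
Eif2ak1: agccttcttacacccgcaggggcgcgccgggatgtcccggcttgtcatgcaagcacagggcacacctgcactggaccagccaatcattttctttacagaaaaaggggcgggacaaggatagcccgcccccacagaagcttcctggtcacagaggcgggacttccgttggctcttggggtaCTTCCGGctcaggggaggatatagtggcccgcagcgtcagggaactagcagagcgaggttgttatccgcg
Eef2k: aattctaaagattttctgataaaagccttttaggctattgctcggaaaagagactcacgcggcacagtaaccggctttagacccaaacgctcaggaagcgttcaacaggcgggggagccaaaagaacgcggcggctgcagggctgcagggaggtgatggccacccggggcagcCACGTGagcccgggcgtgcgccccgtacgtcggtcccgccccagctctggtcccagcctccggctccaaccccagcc
Eif3a: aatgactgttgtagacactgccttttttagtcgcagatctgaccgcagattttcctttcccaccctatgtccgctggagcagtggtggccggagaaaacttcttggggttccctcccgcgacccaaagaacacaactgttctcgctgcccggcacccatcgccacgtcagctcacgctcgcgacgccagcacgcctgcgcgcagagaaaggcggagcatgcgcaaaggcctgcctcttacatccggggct
Qars1: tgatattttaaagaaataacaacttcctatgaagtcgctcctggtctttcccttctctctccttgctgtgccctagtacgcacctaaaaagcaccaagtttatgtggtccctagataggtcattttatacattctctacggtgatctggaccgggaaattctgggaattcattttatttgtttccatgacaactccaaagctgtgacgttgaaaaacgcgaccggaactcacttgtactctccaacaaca

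Each value below is a log2 ratio of siPax8 over control, so that 0 means no difference and values above 0 mean more RNA in siPax8 cells. Directions follow the dyes in the sample labels. The study's text appears to word its numbers of features going down and up against wt cells the other way round, and the deposited value table holds control over siPax8. A gene was called when every feature of it passed an adjusted p of 0.005 in limma in the same direction. Pax8, the silenced gene, had 4 replicate values of -0.84, -0.57, -0.59 and -0.26 against wt cells, a mean of -0.56 ± 0.24 (SD, n = 4) that was called lower (limma adjusted p = 0.000472). Against scramble cells it had -0.58, -0.29, -0.12 and -0.01, a mean of -0.25 ± 0.25 (SD, n = 4) that was not called (adjusted p = 0.143). Thyroid identity was checked from markers. All 9 measured thyroid follicular genes of 10 listed were above background in the siPax8 channel of all 16 arrays, against 2 of 5 macrophage and leukocyte, 1 of 5 fibroblast, 0 of 2 endothelial and 1 of 3 C cell markers, the last being Calca. Of the 9 thyroid genes 8, the silenced Pax8 among them, were called lower against wt cells (median -0.61) and 1, Tg, against scramble cells (median -0.15). The share of spots well above background ran from 51.0% to 59.5% over the arrays. Of the 65 features read here 64 were above background in both channels on all 16 arrays, the exception being Eef1a2, and no spot of theirs was saturated.

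Against wt cells 3 of the 44 genes rose, and these were Eif3a, the largest subunit of the eIF3 complex, Eef2k, the kinase that inhibits eEF2, and Eif2ak1, the haem-regulated kinase of eIF2 also called HRI. No gene of the set was called lower. Among all named genes, dim ones included, 7.26% were called higher and 9.46% were called lower against wt cells. Without dim features these shares were 12.26% and 15.96% of 5319 genes, and the set still had 3 higher and 0 lower genes. For higher calls, 3 of 44 thus lies near the share with dim genes included and below the share without them. These contrasts were not tested. The count of 0 lower calls rests on limma with Benjamini-Hochberg adjustment. At an unadjusted p under 0.05 by limma, 16 of the 65 features were lower and 17 higher. Of all 41012 features, dim ones included, 18.3% were lower and 15.5% higher at that unadjusted p. Of the 16 lower features 1, a feature of Eif4e, passed the adjusted threshold without its partner feature. The 44 genes spanned -0.16 to 0.34, whereas all named genes spanned -1.37 to 2.93. The median was -0.02 ± 0.04 (SD over the 4 replicate medians) against -0.01 for all named genes, dim ones included. Of the 44 genes 41 (93.2%) lay within 0.25 of 0, as did 87.9% of all named genes.

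**Figure D1:**
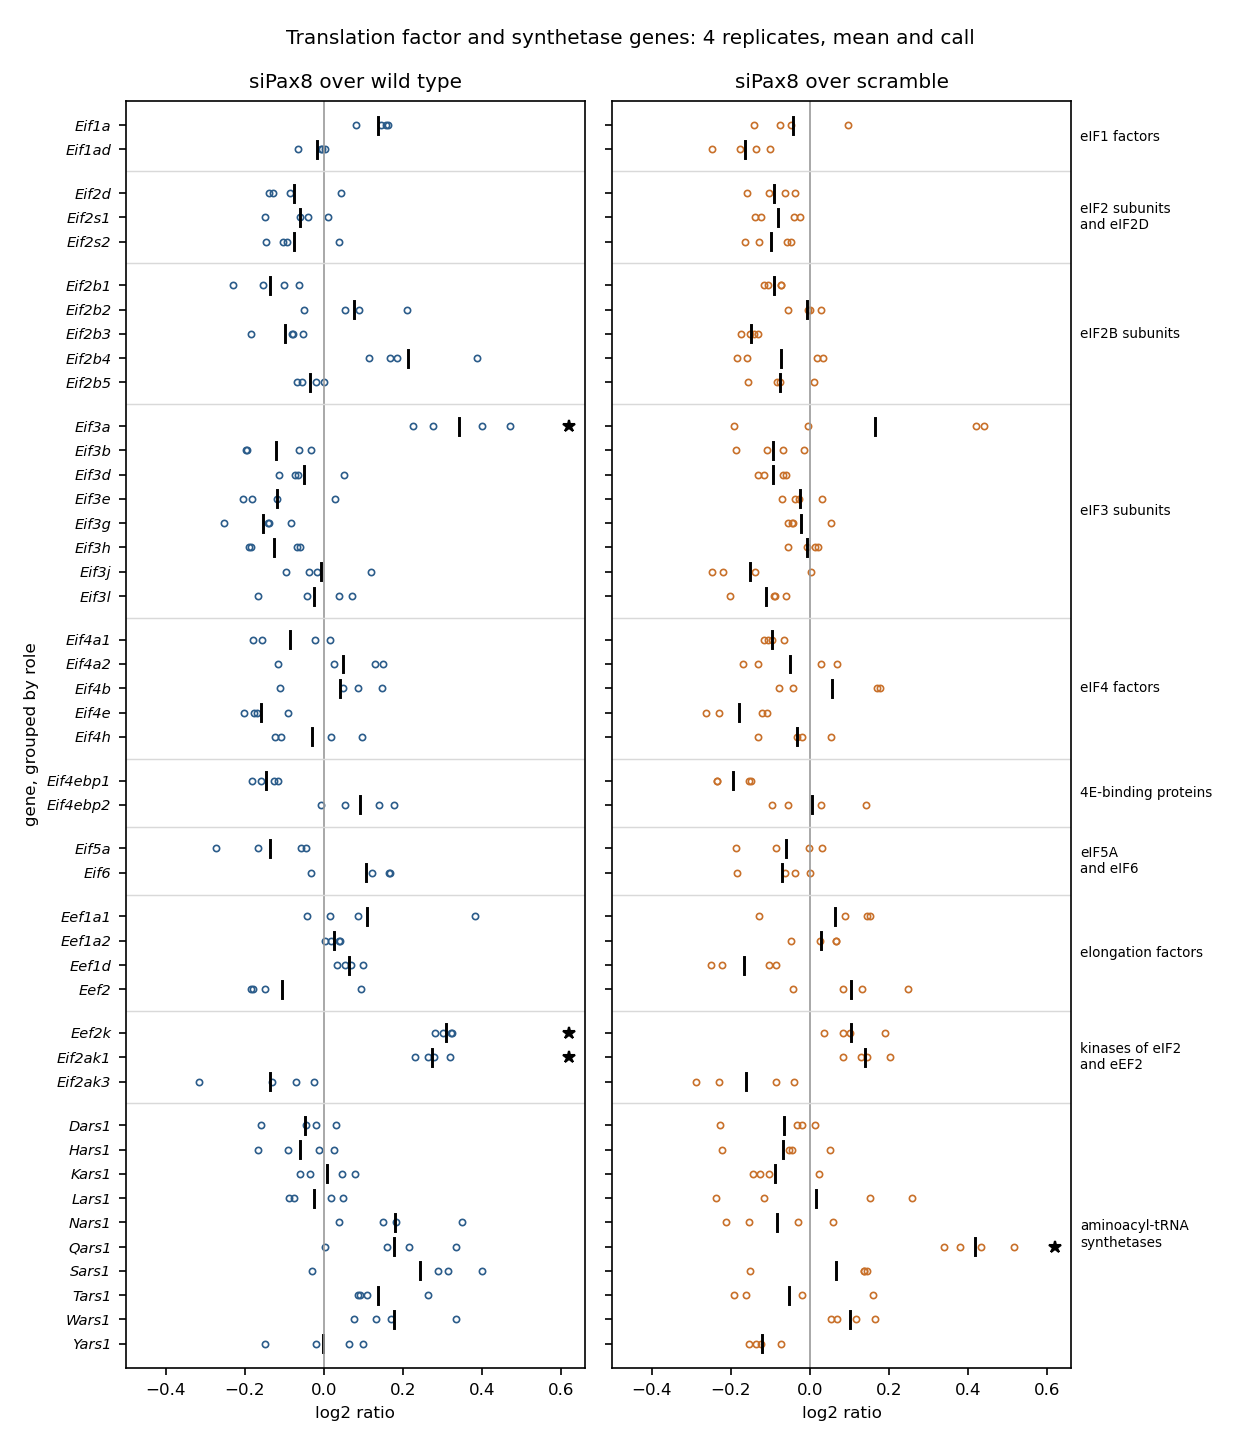
Log2 ratio (horizontal axis) of each of the 44 genes (vertical axis, grouped by role) in siPax8 cells over wt cells (left) and over scramble cells (right). Open circles are the 4 replicates, black bars their mean, and stars mark called genes: Eif3a, Eef2k and Eif2ak1 against wt cells and Qars1 against scramble cells.

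Among the kinases, Eif2ak1 had 0.32, 0.26, 0.23 and 0.28 against wt cells, all far above 0 and close to each other, which is 121% of the wt level on average (0.27 ± 0.04, SD, n = 4; limma adjusted p = 0.000149). Against scramble cells its 4 values were 0.08, 0.13, 0.20 and 0.14, again all above 0, and their mean of 0.14 ± 0.05 was not called (adjusted p = 0.0272), although it was with the replicate block (adjusted p = 0.0043). The values against scramble cells all lay below those against wt cells, and the difference of 0.13 (95% interval 0.05 to 0.22) was not called either (adjusted p = 0.05).

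Eef2k, which slows elongation by phosphorylating eEF2, had 0.28, 0.30, 0.33 and 0.32 against wt cells as the mean of its 2 features, a mean of 0.31 ± 0.02 (SD, n = 4) or 124% of the wt level. Both features passed, at 0.40 (limma adjusted p = 1.9e-05) and 0.21 (adjusted p = 0.00113). With the replicate block the weaker of them had an adjusted p of 0.0593, with the slide as a block 0.0179, and with replicate 2, 3 or 4 left out between 0.00552 and 0.00925, and with both comparisons in 1 fit 0.00789, so the call was lost in each of these. Against scramble cells Eef2k had 0.04, 0.10, 0.08 and 0.19, which do not overlap with the values against wt cells, and its mean was 0.10 ± 0.06 (SD, n = 4; larger adjusted p = 0.611). The stronger feature differed between the comparisons (0.27, 95% interval 0.18 to 0.36, adjusted p = 0.00196) but the weaker did not pass (0.14, adjusted p = 0.275).

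Eif2ak3, which encodes PERK, the eIF2 kinase of the endoplasmic reticulum, lay on the other side of 0. It had -0.32, -0.02, -0.07 and -0.13 against wt cells and -0.09, -0.04, -0.23 and -0.29 against scramble cells, all 8 below 0, and neither mean (-0.14 and -0.16) was called (limma adjusted p = 0.0625 and 0.0795). A further eIF2 kinase, Eif2ak2 or PKR, is outside the set by its rule and is an interferon-response gene. It had a mean of 0.93 ± 0.13 (SD, n = 4) against wt cells and was called higher (larger adjusted p = 1.22e-05), and 0.17 ± 0.06 against scramble cells, where it was not called (larger adjusted p = 0.0794). Its difference between the comparisons was called (0.77, larger adjusted p = 0.00114).

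Eif3a stood apart from the other 7 measured subunits of eIF3, the complex that bridges the small ribosomal subunit and eIF4F. It had 0.22, 0.40, 0.28 and 0.47 against wt cells, a mean of 0.34 ± 0.11 (SD, n = 4) or 127% of the wt level, with limma adjusted p of 0.00127 and 0.000458 for its 2 features. Against scramble cells it had -0.19, -0.01, 0.42 and 0.44, so that replicates 1 and 2 lay at or below 0 whereas 3 and 4 lay within the upper part of the range against wt cells, and the mean of 0.17 ± 0.32 was not called (larger adjusted p = 0.595). The call against wt cells was lost with the replicate block (larger adjusted p = 0.0198), with the slide as a block (0.00522), without replicate 2 (0.00766), with both comparisons in 1 fit (0.0823) and with Agilent's processed intensities (0.0215).

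The other 7 measured eIF3 subunits all had means below 0 in both comparisons and none was called. Against wt cells Eif3j (-0.01) and Eif3l (-0.03) lay close to 0, and the 2 features of Eif3l had opposite signs. Eif3g was the lowest against wt cells, with -0.25, -0.14, -0.14 and -0.08 and a mean of -0.15 ± 0.07 (SD, n = 4; limma adjusted p = 0.00948). It was called lower with the replicate block (adjusted p = 0.00204). Against scramble cells Eif3j, a loosely held subunit, was the lowest at -0.15 ± 0.11 (adjusted p = 0.0895). The median of the 8 measured subunits was -0.08 against wt and -0.06 against scramble cells.

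The eIF2 complex delivers the initiator tRNA. Its subunits Eif2s1 and Eif2s2 and the related factor Eif2d had means of -0.08 to -0.06 against wt and -0.10 to -0.08 against scramble cells, and all 3 genes were below 0 in all 4 replicates against scramble cells. None was called. Eif2s2, whose promoter holds the amino acid response element, had 3 features that read -0.08, 0.03 and -0.18 against wt cells.

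The subunits of eIF2B, the exchange factor, went in different directions against wt cells without a call. Eif2b4 was the highest, with 0.17, 0.39, 0.19 and 0.11 and a mean of 0.21 ± 0.12 (SD, n = 4; limma adjusted p = 0.00619). Eif2b1 was the lowest, with -0.15, -0.06, -0.23 and -0.10 and a mean of -0.14 ± 0.07 (adjusted p = 0.0172), and it was called lower with the replicate block (adjusted p = 0.00276). Against scramble cells all 5 subunits had means below 0, from -0.15 for Eif2b3 to -0.01 for Eif2b2. The smallest adjusted p for the difference between comparisons among them was 0.0232, for Eif2b4 (0.29, 95% interval 0.13 to 0.44).

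Neither of the 2 factors named for eIF1 was called in either comparison or in the difference. Eif1a, which scans for the start codon with eIF1, had 0.14, 0.16, 0.16 and 0.08 against wt cells (0.14 ± 0.04, SD, n = 4; limma adjusted p = 0.00765), just outside the threshold, and -0.04 ± 0.10 against scramble cells. Eif1ad had a mean of -0.02 ± 0.03 against wt cells and -0.25, -0.14, -0.10 and -0.18 against scramble cells (-0.17 ± 0.06; adjusted p = 0.0214).

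Of the cap-binding group, Eif4e gave the only feature of the set that passed in both comparisons. That feature had -0.22, -0.37, -0.22 and -0.31 against wt cells (-0.28 ± 0.07, SD, n = 4; limma adjusted p = 0.000335) and -0.21, -0.23, -0.18 and -0.28 against scramble cells (-0.22 ± 0.04; adjusted p = 0.00428). The other Eif4e feature read -0.04 ± 0.06 (adjusted p = 0.512) and -0.14 ± 0.15 (adjusted p = 0.197), so the gene was not called. With its features averaged before the fit, Eif4e was called lower against wt cells (adjusted p = 0.00396) but not against scramble cells. Both features were below 0 on average in both comparisons. This pair was described after its values were seen.

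The 4E-binding proteins hold eIF4E away from the cap complex when they are not phosphorylated. Eif4ebp1 had -0.18, -0.11, -0.16 and -0.12 against wt cells and -0.24, -0.15, -0.16 and -0.23 against scramble cells, all 8 below 0. Its means were -0.14 ± 0.03 and -0.19 ± 0.05 (SD, n = 4) and neither was called, since the larger limma adjusted p of its 2 features was 0.208 and 0.019. With the 2 features averaged before the fit, Eif4ebp1 was called lower against wt cells (adjusted p = 0.00466) but not against scramble cells. Eif4ebp2 had features that disagreed against wt cells, with 0.26 ± 0.05 (adjusted p = 0.000299) for one and -0.08 ± 0.12 (adjusted p = 0.275) for the other.

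The helicase genes Eif4a1 and Eif4a2 and the cofactors Eif4b and Eif4h were not called, and their means lay between -0.10 and 0.06 in both comparisons. Eif4a1 has 5 features, which ran from -0.15 to 0.04 against wt cells and from -0.13 to -0.05 against scramble cells. Eif4b has 4 features. One of them is spotted 10 times on the array and read 0.17, 0.24, 0.18 and 0.19 against scramble cells (0.19 ± 0.03, SD, n = 4; limma adjusted p = 0.00587), whereas the other 3 read -0.01 to 0.02.

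**Figure D2:**
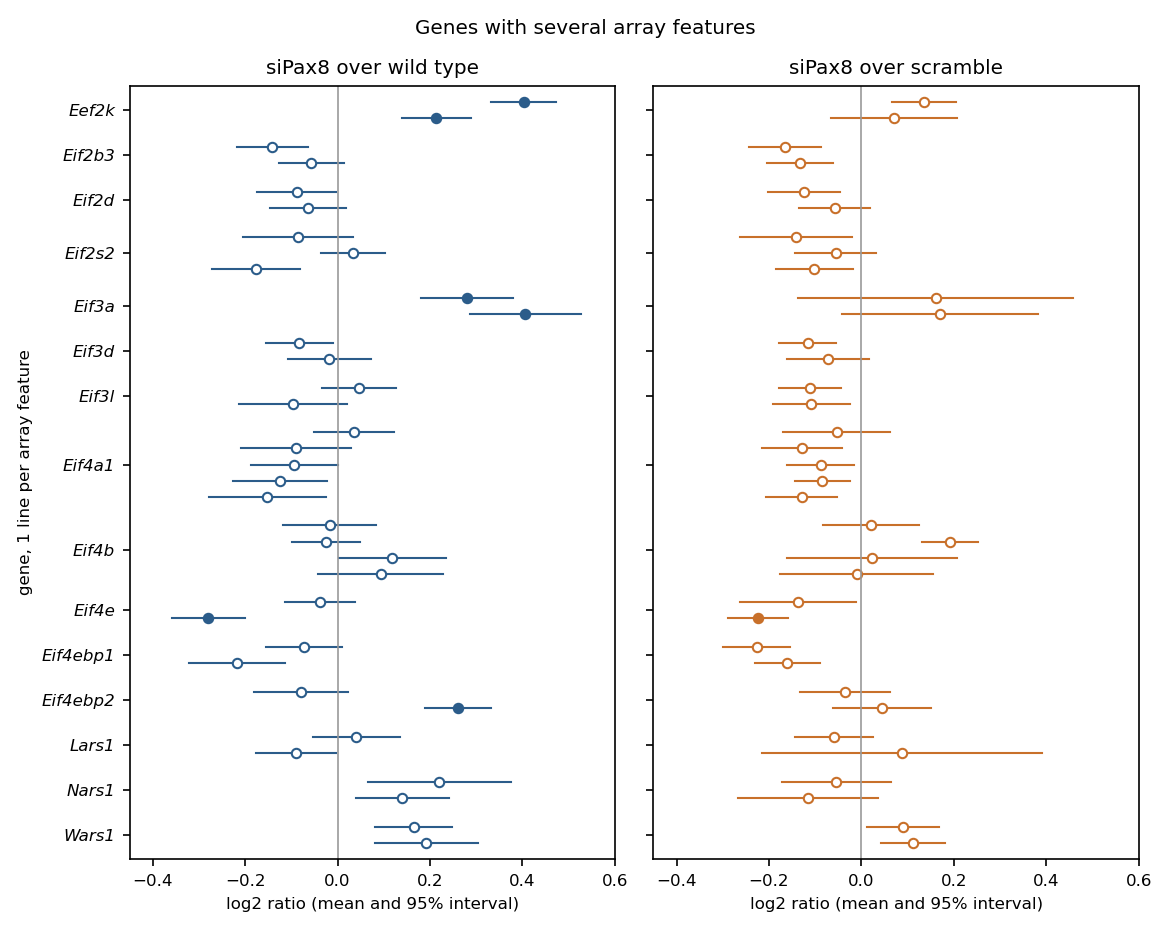
Mean log2 ratio with its 95% interval (horizontal axis) for each array feature of the 15 genes that have several (vertical axis), over wt cells (left) and over scramble cells (right). Filled circles passed an adjusted p of 0.005, and Eif4e and Eif4ebp2 each have a filled and an open circle against wt cells.

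Agreement between features was checked for the 15 genes with several. Their features had the same sign in 9 of 15 genes against wt and in 12 of 15 against scramble cells. The largest spread between features of a gene was 0.34 against wt cells, for Eif4ebp2, and 0.20 against scramble cells, for Eif4b. The 95% interval of a feature reached a median of 0.09 to either side of its mean against wt and 0.08 against scramble cells, and it lay wholly within 0.5 of 0 for 64 of 65 and for 65 of 65 features.

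Eif5a, which carries the hypusine residue and helps ribosomes at stalling sequences, had -0.27, -0.17, -0.06 and -0.05 against wt cells, a mean of -0.14 ± 0.11 (SD, n = 4; limma adjusted p = 0.0399). Eif6, which keeps the large subunit free, had 0.11 ± 0.09 (adjusted p = 0.0813). Neither passed, and against scramble cells their means were -0.06 and -0.07.

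None of the 4 elongation factors was called. Eef1a1, which carries aminoacyl-tRNAs, had 0.01, 0.38, 0.09 and -0.04 against wt cells (0.11 ± 0.19, SD, n = 4; limma adjusted p = 0.269) and 0.06 ± 0.13 against scramble cells. Eef2, the target of Eef2k, had -0.18, 0.09, -0.15 and -0.18 against wt cells (-0.10 ± 0.13; adjusted p = 0.159) and 0.25, 0.13, -0.04 and 0.08 against scramble cells (0.10 ± 0.12; adjusted p = 0.268). Eef1d, a subunit of the exchange factor of eEF1A, had 0.06 ± 0.03 against wt and -0.17 ± 0.08 against scramble cells, with the smallest adjusted p of the difference in the set when the larger p is taken for genes with several features (0.23, 95% interval 0.13 to 0.33, adjusted p = 0.00848). Eef1a2 read 0.03 in both comparisons and was above background in the siPax8 channel on 4 of 8 arrays against wt and 3 of 8 against scramble cells. Many copies of Eef1a1 exist in rodent genomes, and whether its feature also reads them was not examined.

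The synthetases attach amino acids to their tRNAs. Qars1, the glutaminyl-tRNA synthetase, rose against scramble cells with 0.52, 0.38, 0.34 and 0.43, all far above 0, a mean of 0.42 ± 0.08 (SD, n = 4) or 134% of the scramble level (limma adjusted p = 0.000937). It was the single gene of the set called against scramble cells. Against wt cells it had 0.00, 0.33, 0.16 and 0.22, all at or above 0 but lower, and the mean of 0.18 ± 0.14 was not called (adjusted p = 0.0243). The call against scramble cells was lost without replicate 2 (adjusted p = 0.0107) and without replicate 3 (0.0053), and with Agilent's processed intensities (0.0224). The difference between the comparisons was -0.24 (95% interval -0.39 to -0.09, adjusted p = 0.044).

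Against wt cells the highest synthetase was Sars1, the seryl-tRNA synthetase, with -0.03, 0.29, 0.40 and 0.31 and a mean of 0.24 ± 0.19 (SD, n = 4; limma adjusted p = 0.0169). Replicate 1 stood at 0 and the others well above it, and without replicate 1 the mean was 0.33 and was called (adjusted p = 7.42e-05). Qars1 was likewise called against wt cells without that replicate (0.24, adjusted p = 0.00137). Wars1, which is also an interferon-response gene, had 0.17, 0.33, 0.08 and 0.13 (0.18 ± 0.11; larger adjusted p = 0.0181). Nars1 and Tars1, whose promoters hold the amino acid response element, had 0.18 ± 0.13 and 0.14 ± 0.08 and were above 0 in all 4 replicates (larger adjusted p = 0.0472 and 0.0222).

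At the looser adjusted p of 0.05, 5 of the 10 synthetases were higher than in wt cells and none was lower, and these were Nars1, Qars1, Sars1, Tars1 and Wars1. Over all named genes 11.7% were higher at that threshold. By the dye of the siPax8 RNA, Qars1 averaged -0.10 in Cy5 and 0.45 in Cy3 against wt cells, and Tars1 -0.04 and 0.32. Nars1, Sars1 and Wars1 were above 0 with either dye. Against scramble cells only Qars1 was higher and Yars1 lower at 0.05, and Nars1 and Tars1 had means of -0.08 and -0.05. The median of the 10 synthetases was 0.07 against wt and -0.06 against scramble cells. The lowest against wt cells was Hars1 (-0.06) and against scramble cells Yars1, with -0.12, -0.07, -0.15 and -0.14 (-0.12 ± 0.03; adjusted p = 0.0332).

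Against scramble cells 1 of 44 genes was called higher, where 1.67% of all named genes were, and none was called lower, where 1.31% were. Without dim features these shares were 2.82% and 1.86% of 5319 genes. By limma 25 of the 65 features were lower at an unadjusted p under 0.05 and 6 were higher. Of all 41012 features, dim ones included, 11.9% were lower and 8.57% higher at that threshold. Means above 0 were found for 12 of the 44 genes (27.3%) and for 47.1% of all named genes, dim ones included. The other 32 of the 44 genes had means below 0. In all 4 replicates 16 of the 44 (36.4%) were below 0, against 18.2% of all named genes. The median of the 44 genes was -0.07 ± 0.02 (SD over the 4 replicate medians, which ran from -0.08 to -0.04). For all named genes, dim ones included, it was -0.00. The genes were read on the same arrays, so these shares describe the set and are not a test. With loess alone 132 named genes were called higher and 62 lower, against 149 and 117 with quantile normalization. On the 4 slides, each of which held an array of every kind, the median was between -0.07 and -0.05 against scramble cells and between -0.07 and 0.04 against wt cells.

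**Figure D3:**
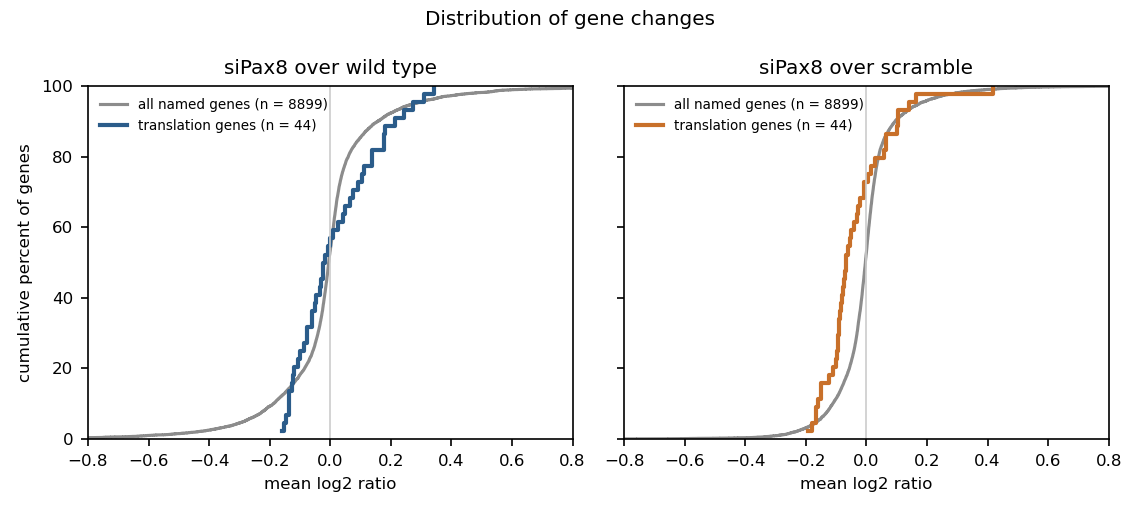
Cumulative percent of genes (vertical axis) by mean log2 ratio (horizontal axis, drawn from -0.8 to 0.8) for the 44 genes (coloured) and all 8899 named genes (grey), over wt cells (left) and scramble cells (right). Over scramble cells the coloured line lies left of the grey one from about -0.15 to 0, and 32 of 44 genes are below 0.

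No gene of the set was called in the test of the difference between the comparisons, in which 1.78% of all named genes were higher and 2.79% lower against wt than against scramble cells. With limma 6 of the 44 genes (13.6%) had an adjusted p under 0.05 there, near the 11.7% of all named genes, and these were Eef1d, Eif2b4, Eif1ad, Qars1, Eif1a and Eif2ak1. At an unadjusted p under 0.05 by limma, 15 of the 65 features were higher and 5 lower against wt than against scramble cells, where 11.2% and 10.9% of all features were. The mean was above 0 in both comparisons for 10 genes and below 0 in both for 23. No gene of the set was called in both comparisons in either direction.

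The values of single genes moved with the dye that labelled the siPax8 RNA. Between the arrays with siPax8 in Cy5 and those with it in Cy3 the mean changed sign in 20 of the 44 genes against wt (45.5%). Against scramble cells it did so in 21 (47.7%). These shares were near those of all named genes, dim ones included (41.0% and 49.7%). The median size of the gap was 0.15 and 0.14, against 0.08 and 0.07 for all named genes. A dye effect cancels in the mean of exchanged arrays, and the part of the dye in single values was not tested. Qars1 averaged 0.17 in Cy5 and 0.67 in Cy3 against scramble cells, and -0.10 and 0.45 against wt cells. Eif3a averaged 0.14 and 0.54 against wt cells, and Eef2k 0.45 and 0.16. Against scramble cells Eef2k averaged 0.23 in Cy5 and -0.03 in Cy3. Qars1 and Eif3a lost their calls with siPax8 in Cy5 alone, Eef2k with it in Cy3 alone, and Eif3a in Cy3 alone too (limma adjusted p = 0.00586). Eif2ak1 had 0.23 and 0.31 against wt cells and was called with either dye alone, but it lost its call with Agilent's processed intensities (limma adjusted p = 0.00935).

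**Figure D4:**
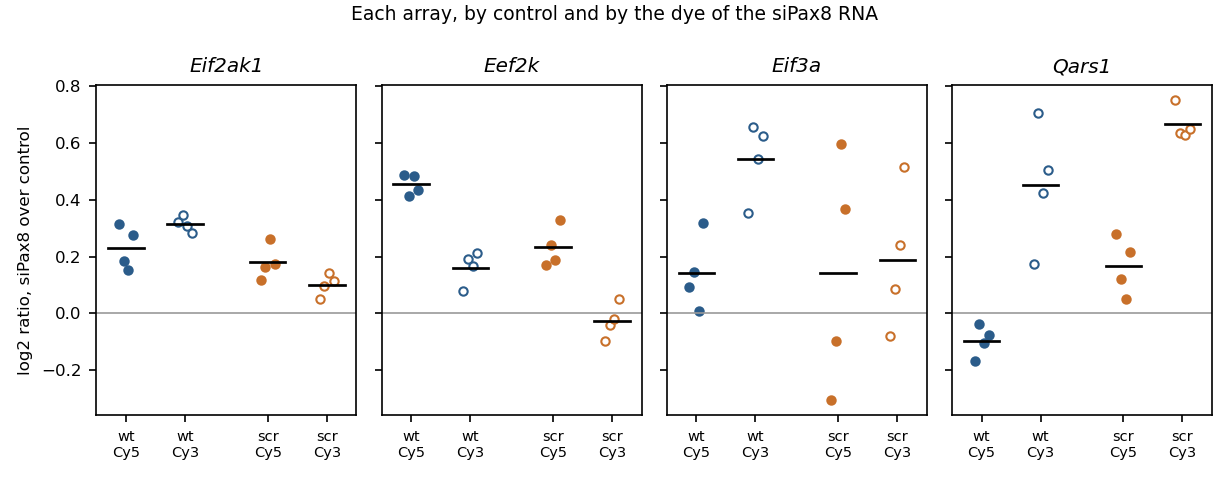
Log2 ratio (vertical axis) on each array for the 4 called genes, by control (wt, or scr for scramble) and by the dye of the siPax8 RNA (horizontal axis; filled Cy5, open Cy3), with the mean as a bar. All 16 arrays lie above 0 for Eif2ak1. The dyes separate for Qars1 and Eef2k in both comparisons and for Eif3a against wt cells.

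Other genes of translation were read on lists chosen beside the set. Of 60 ribosomal protein genes 19 were called lower against wt cells and 1 higher, with a median of -0.13 and -0.01 for all named genes. The lowest was Rps20 at -0.35 ± 0.11 (SD, n = 4; limma adjusted p = 0.00162), followed by Rpl22 at -0.32 ± 0.08 (adjusted p = 0.000174), and the exception was Rps29 at 0.28 ± 0.11 (adjusted p = 0.00119). None of the 60 was called against scramble cells, where the median was -0.04. Lower calls against wt cells thus numbered 0 of 44 in the set and 19 of 60 among ribosomal proteins, and this contrast was not tested.

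Among 12 measured genes of 19 listed as other translation factors, 1 rose and 1 fell against wt cells. Eprs1, the joint glutamyl- and prolyl-tRNA synthetase whose symbol falls outside the rule of the set, was at 0.21 ± 0.09 (SD, n = 4; limma adjusted p = 0.00262) and at -0.17 ± 0.07 against scramble cells (adjusted p = 0.0218), and the difference between the comparisons was called. Dhps, which starts hypusine formation on eIF5A, fell to -0.25 ± 0.08 (adjusted p = 0.000928). Pdcd4, an inhibitor of the eIF4A helicase, rose against scramble cells at 0.35 ± 0.10 (adjusted p = 0.00338) and had 0.09 ± 0.17 against wt cells.

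The genes that signal to translation gave 1 call in 8 measured of 13, Tsc2, an inhibitor of mTORC1, at -0.25 ± 0.10 against wt cells (SD, n = 4; limma adjusted p = 0.00171). Among genes of mitochondrial translation Gfm1 at -0.20 and Vars2 at -0.19 were called lower and Mtif2 at 0.22 higher against wt cells, and none of these was called against scramble cells. Of 8 genes of growth and ribosome assembly Myc at 0.24 ± 0.04 and Fbl at 0.21 ± 0.08 were called higher against wt cells.

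The targets of the integrated stress response, the programme that eIF2 phosphorylation sets off, split. Of 14 measured genes of 18 listed, 5 rose and 3 fell against wt cells. Ddit3, which encodes CHOP, was the highest at 1.34 ± 0.15 (SD, n = 4; limma adjusted p = 4.24e-07) and was also called against scramble cells at 0.39 ± 0.08 (adjusted p = 0.00142). Trib3 was at 0.59 ± 0.13 and Vegfa at 0.56 ± 0.09 against wt cells, whereas Slc7a5, an amino acid transporter, fell to -0.43 ± 0.16. Atf3 was at 0.54 ± 0.09 against wt and at -0.29 ± 0.08 against scramble cells, called in both in opposite directions. Asns, which makes asparagine and is a standard target of Atf4, was at 0.05 ± 0.13 against wt cells and was not called.

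Interferon genes gave the highest values of any list. Of 13 measured genes of 15 listed, one of them Eif2ak2, 11 were called higher against wt cells (list range 0.25 to 2.93, median 1.13) and 2 against scramble cells (range 0.06 to 0.74, median 0.33). The highest against wt cells were Oas1a at 2.93 ± 0.44 and Mx2 at 2.86 ± 0.53 (SD, n = 4), both antiviral effectors. The difference between the comparisons was called for 8 of the 13. Of the 5 leukocyte markers Cd68, a lysosomal protein, was called higher against wt cells at 0.30 ± 0.12. Their part in the values of Eif2ak1, Eef2k, Eif3a and Wars1 against wt cells was not tested.

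**Figure D5:**
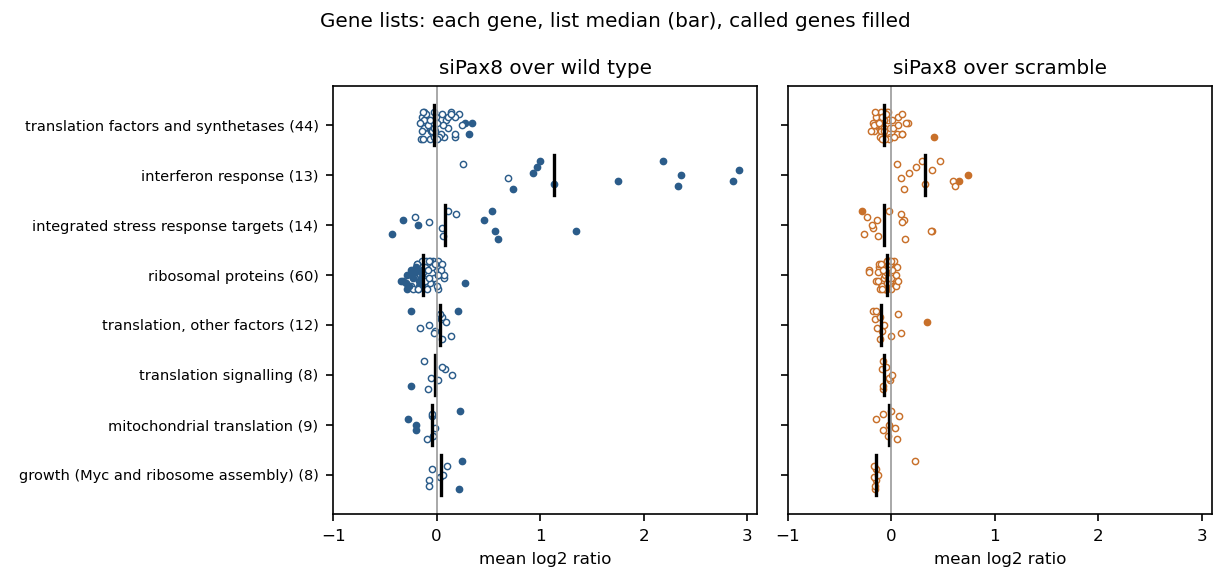
Mean log2 ratio (horizontal axis) of each gene of the set and of 7 other lists (vertical axis, number measured in brackets), over wt cells (left) and scramble cells (right). Filled circles are called genes and black bars list medians, which lie near 0 for the set (-0.02 and -0.07) and at 1.13 and 0.33 for the interferon genes.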

How the data were processed

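RNA of siPax8, wt and scramble cells was hybridised competitively on Agilent rat whole genome arrays. The deposited scanner files hold spot intensity per channel, quantified by the authors with Feature Extraction (version 10.1.1.1 per the file headers), and the deposited value table holds log2 ratios that the authors normalised by loess and quantile methods. The table's column medians were near 0 and its ratios ran opposite to those used here (r between -0.999 and -0.992), so its sign was turned.

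Here mean intensities were corrected by normexp (offset 50) and normalised by loess and quantiles in limma 3.58.1 (R 4.3.3). Control spots and outliers had weight 0 in loess, and outlier spots were left out afterwards. Spots of a feature, then the 2 dye orientations of a replicate, were averaged, since the methods describe them as the same samples (correlation of their deviations 0.12 to 0.58). For replicate 2 against wt cells it was 0.12, below the 0.20 between its Cy5 array and the Cy3 array of another replicate. The other replicates correlated best with their own. Each comparison was fitted with lmFit and eBayes over 41012 features, adjusted by Benjamini-Hochberg, and a gene was called when all its features passed 0.005 in the same direction. The replicate block fitted the 8 arrays unaveraged with an estimated correlation (duplicateCorrelation, statmod 1.5.0). The difference, wt ratio minus scramble ratio, was tested on the 8 averaged ratios. Genes were named from RefSeq accessions (10768 features).

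The members and lists were chosen with earlier results of these data known. Named were all called genes, genes with disagreeing features, the largest change of each role in each direction and, in each list, up to 3 called genes with the largest change. A few others, among them the Eif4e pair, Asns, Eif2ak3, Nars1, Tars1 and Wars1, were named after their values were seen. One result of the mitochondrial translation list is not reported here. Simulated data were used to test the fit. The number of arrays limits the precision.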

Additional observations from a re-analysis of the deposited data

Results flagged for a closer look

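In 5 of 90 groups of 4 replicates, the 44 genes and Pax8 in both comparisons, a replicate lay far from the other 3, where chance flags about 1 in 20 groups. The gap to its nearest neighbour over the whole range was 0.969 for Sars1 against scramble cells, with replicate 1 at -0.15 and the others at 0.14. It was 0.881 for Tars1 against wt cells, with replicate 2 at 0.26 and the others between 0.09 and 0.11, and 0.868 for Eif1ad against wt cells, with replicate 4 at -0.07 and the others between -0.01 and 0.00. It was 0.889 for Eif3g against scramble cells, with replicate 4 at 0.05 and the others between -0.05 and -0.04, and 0.877 for Eef2 against wt cells, with replicate 2 at 0.09 and the others between -0.18 and -0.15.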

How the results depend on the processing

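Alternatives were run for every gene of the set. The medians of the set stayed within 1 SD of the main value in each, between -0.04 and 0.00 against wt and between -0.08 and -0.05 against scramble cells. Counts of called genes are small and moved. Against wt cells the 3 higher genes became 1 with Agilent's processed intensities, with siPax8 in Cy3 alone, with the replicate block or with both comparisons in 1 fit, 5 with loess alone or the replicate block and dye term, 7 with siPax8 in Cy5 alone and 10 at an adjusted p of 0.05. The 0 lower genes became 2 with siPax8 in Cy5 alone, the replicate block, with the dye term too, both comparisons in 1 fit or features averaged first, 4 with the slide as a block and 5 at 0.05. Against scramble cells the 1 higher gene became 0 with Agilent's processed intensities or siPax8 in Cy5 alone, and 2 with siPax8 in Cy3 alone, the replicate block with or without the dye term, the slide as a block or 0.05. The 0 lower genes became 5 with siPax8 in Cy3 alone or at 0.05, 2 with the replicate block and dye term or the slide as a block, and 1 with both comparisons in 1 fit. Genes higher in both went from 0 to 1 with the replicate block, with the dye term too or with the slide as a block, and to 2 at 0.05. Genes that differed between comparisons went from 0 to 2 with the replicate block (paired by number) with or without the dye term, to 6 at 0.05 and to 1 with the brightest feature of a gene. With 1 replicate left out the counts ran from 1 to 5 higher and 0 to 1 lower against wt, 0 to 1 higher against scramble cells and 0 to 1 higher in both. Pax8 against wt cells lost its call with Agilent's processed intensities (-0.58), with siPax8 in Cy3 alone (-0.47) and without replicate 3 (-0.56, limma adjusted p = 0.00562), and ran from -0.66 to -0.47 with 1 replicate left out. Tars1 against scramble cells turned from -0.05 to 0.22 and was called with siPax8 in Cy3 alone. The cause was not tested. Across the comparisons 3 of the 4 replicate numbers correlated best with their own (correlation of deviations 0.40, 0.18 and 0.57 for numbers 1, 2 and 4). Number 3 had 0.04 with its own and 0.41 with another, so replicate numbers paired only in part. Over all named genes, 646 higher and 842 lower against wt cells became 220 and 230 with Agilent's processed intensities, 405 and 459 with siPax8 in Cy3 alone, 1043 and 1393 at 0.05, and 408 to 740 and 475 to 901 with 1 replicate left out. Against scramble cells 149 and 117 became 0 and 0 with Agilent's processed intensities, 132 and 62 with loess alone, 40 and 26 in Cy5 alone, 431 and 449 in Cy3 alone, 266 and 220 with the replicate block, 326 and 294 with the dye term too, 345 and 313 with the slide as a block, 267 and 252 in 1 fit, 495 and 506 at 0.05, and 26 to 81 and 18 to 44 with 1 replicate left out. In the difference 158 and 248 became 75 and 106 with Agilent's processed intensities, 90 and 140 in Cy5 alone, 77 and 105 in Cy3 alone, 269 and 342 with the replicate block, 309 and 390 with the dye term too, 472 and 572 at 0.05, and 48 to 135 and 67 to 183 with 1 replicate left out.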
